A study of Mus musculus with 46 samples.

Results

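Cyclic AMP signaling is described here through 55 genes of the 31854 in the count table: those named as phosphodiesterases (Pde), adenylyl cyclases (Adcy), catalytic and regulatory subunits of protein kinase A (Prkac, Prkar), Creb family members and Crtc coactivators. The members were taken by a rule on the symbol alone, which was chosen with earlier results of these data known. RNA was obtained by translating ribosome affinity purification (TRAP), in which a GFP-tagged ribosomal protein L10a is pulled down with the RNA it carries. NuTRAP AgRP mice, carrying AgRP-IRES-Cre, tagged AgRP neurons of the arcuate nucleus, which drive hunger, and NuTRAP Pomc mice, carrying POMC-IRES-Cre, tagged POMC neurons, which restrain feeding. All mice were males on C57BL/6J, 6 to 11 weeks old, and 4 arcuate nuclei were pooled per sample. Fed mice ate ad libitum and received PBS, fasted mice were without food for 18 to 20 h and received PBS, and leptin mice were fasted likewise and received 5 mg/kg leptin i.p., with tissue taken 3 h after the injection. There were 3 fed, 4 fasted and 4 leptin libraries of AgRP neurons and 2 of each state of POMC neurons. Accessible chromatin was measured by ATAC-seq of sorted nuclei, with 2 libraries each of AgRP nuclei in the 3 states and 2 each of AgRP-positive and AgRP-negative nuclei. Neuron type and mouse line cannot be told apart, since each neuron type came from its own Cre line. Because each sample pooled animals, p-values measure the spread between pooled samples, and in such bulk RNA fewer cells of a type and less RNA per cell cannot be told apart.

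Counts per RNA library ranged from 25581041 to 54511107 for AgRP and from 30704075 to 53217053 for POMC neurons, and those per ATAC-seq library from 8263234 to 17190963. Agrp itself was at 312.6 to 2136 CPM (read counts scaled to library size by TMM) in the 11 AgRP libraries and at 5.88 to 27.4 CPM in the 6 POMC libraries, and Pomc was at 17.4 to 44.1 CPM against 1128 to 2067 CPM. Some libraries stood apart. The summed level of 7 astrocyte markers was 21048, 26804 and 26215 CPM in the AgRP libraries numbered 4 and 2809 to 4499 CPM in the other AgRP libraries, and it was 24384 to 28008 CPM in the POMC libraries numbered 2 against 5906 to 6859 CPM in those numbered 1. Most of this sum was Slc1a2, the glial glutamate transporter, which ranged from 2381 to 25888 CPM in AgRP libraries, whereas Gfap ranged from 29.9 to 53.4 CPM. Of the 7 markers 0 were called in any comparison of AgRP states by edgeR without the library number as a block, 1 was lower with it in fasted and in leptin than in fed libraries, and 1 was lower in AgRP than in POMC libraries. Other marker lists leaned one way in fasted against fed AgRP libraries, with 0 markers called by edgeR without the block. The 7 AgRP neuron markers all had positive values (median log2 fold change 0.66, 6 higher with the block), Lepr and Agrp were higher in leptin than in fed libraries, and the sum was 1725 to 2447 CPM in fed, 3152 to 6660 CPM in fasted and 2355 to 6612 CPM in leptin libraries. All 5 tested microglia markers had negative values (median -0.62, P2ry12 and Cx3cr1 lower with the block), with sums of 24.4 to 43.3, 18.5 to 40.9 and 20.4 to 38.8 CPM, and 7 of 8 oligodendrocyte markers did (median -0.36, Mog lower with the block), with sums of 569.4 to 867.7, 500.7 to 790.5 and 500.9 to 868.5 CPM. Of the tanycyte and endothelial markers 0 were called between AgRP states by edgeR, with or without the block. The part of these signals in the results was not tested, and each comparison of AgRP states is also given without the libraries numbered 4.

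Cyclic AMP is made from ATP by adenylyl cyclases, which stimulatory G proteins switch on and inhibitory G proteins restrain, and it is destroyed by phosphodiesterases. It releases the catalytic subunits of protein kinase A (PKA) from their regulatory subunits, and the kinase phosphorylates ion channels, enzymes and the transcription factor CREB, whose target genes include immediate early genes. In AgRP neurons this pathway carries signals that raise or lower the drive to eat, and leptin signaling is known to activate the phosphodiesterase PDE3B. The name rule also took genes that have other roles: Pde12 is a mitochondrial enzyme that trims poly(A) tails, Pde4dip is a scaffold protein, Pde6d binds prenylated proteins, and the Creb3 family consists of membrane-bound transcription factors that are freed by cleavage in the secretory pathway.

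Of the 55 genes, 45 exceeded a mean of 1 CPM and were tested in each RNA model. The 10 that did not were Pde4c, 5 Pde6 genes of photoreceptors (Pde6a, Pde6b, Pde6c, Pde6g and Pde6h), the soluble cyclase Adcy10, Creb3l3, Creb3l4 and an additional entry of Pde1c. By role, 9 adenylyl cyclases, 7 phosphodiesterases specific for cyclic AMP, 8 that act on both cyclic nucleotides, 3 with names of cyclic GMP enzymes, 2 other Pde-named genes, 2 catalytic and 4 regulatory PKA subunits, 5 genes of CREB and its coactivators, 2 of the Creb3 family and 3 other Creb-named genes were tested.

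The 4 members with the highest level per kilobase in fed AgRP neurons were PKA subunits. Per kilobase of the bases counted for a gene, Prkar1b, a neuronal regulatory subunit, stood at 430 CPM per kb ± 94.5 (SD, n = 3) and Prkar1a at 333.5 ± 54.97, and 99.94% and 99.87% of all genes were lower. The catalytic subunits Prkacb and Prkaca followed at 274.6 and 174 CPM per kb, and the fed libraries of these neighbours in the order did not overlap, nor did those of Prkaca and Adcy5. The regulatory subunits Prkar2a and Prkar2b were at 47.0 and 44.6 CPM per kb. Among cyclases Adcy5, which inhibitory G proteins and calcium restrain, was highest at 76.2 CPM per kb, ahead of Adcy2 at 26.4 and Adcy6 at 20.8. Among phosphodiesterases Pde2a, which cyclic GMP stimulates, was highest at 34.0, followed by the calmodulin-dependent Pde1b at 27.6, Pde6d at 27.0, and Pde4d at 21.9 as the highest enzyme specific for cyclic AMP. In the other roles the highest were Crtc1, a CREB coactivator, at 31.0, Creb3l2 at 7.10, the bZIP gene Crebl2 at 48.0 and Pde4dip at 22.4 CPM per kb. Low in the order stood Pde3b at 4.70, Pde1c at 2.56, Pde3a at 1.63, Creb3l1 at 1.21 and Adcy4 at 0.54 CPM per kb. Many neighbours in the order overlapped between libraries, among them Prkar1b with Prkar1a and Prkar1a with Prkacb, so that their order was not larger than their spread.

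**Figure D1:**
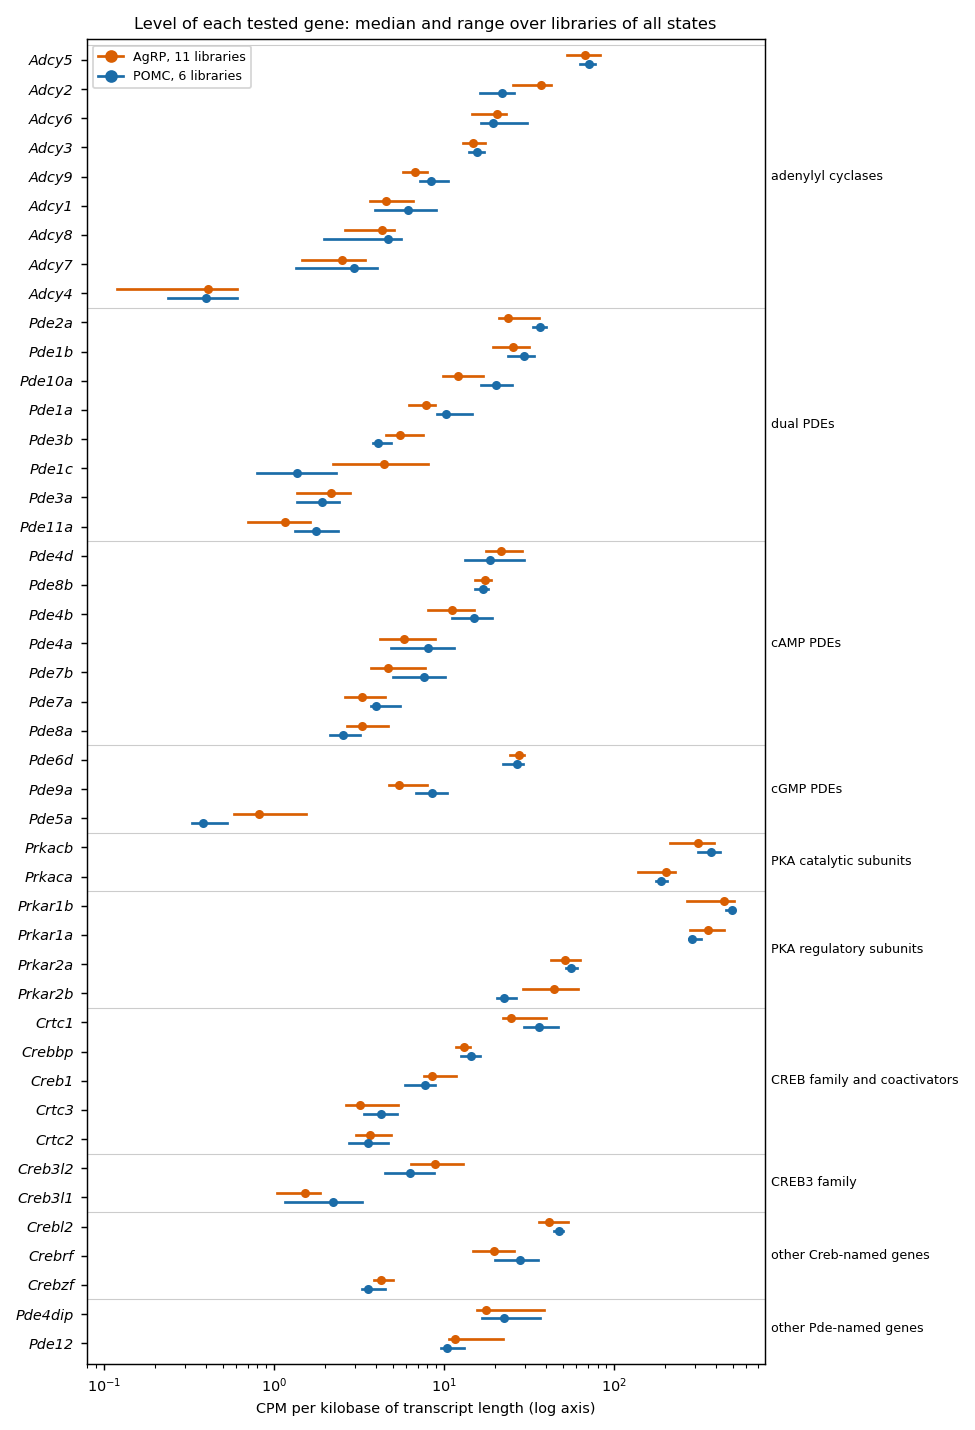
Level of each of the 45 tested genes in CPM per kilobase of counted bases (log axis, labelled as transcript length), with the median as a point and the range over libraries as a line, for the 11 AgRP and 6 POMC libraries of all states, grouped by role. Prkar1b, Prkar1a, Prkacb and Prkaca lie at the right of the plot, and Prkar2b, Pde5a and Pde1a are the genes whose AgRP and POMC ranges are apart.

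The summed level of the PKA regulatory subunits differed between states by less than its spread. The 4 regulatory subunits together had 855 CPM per kb ± 141.7 (SD, n = 3) in fed, 896 ± 108 (n = 4) in fasted and 886 ± 122 (n = 4) in leptin AgRP libraries, and the cyclases had 158.5 ± 10.2, 162.2 ± 6.61 and 152.4 ± 8.44 CPM per kb. The cyclase sums of fasted and leptin libraries differed by more than their SDs, which was not tested. Prkar2b made up 5.31% ± 0.811 of the regulatory sum in fed, 3.92% ± 1.13 in fasted and 5.99% ± 1.79 in leptin AgRP libraries, and 2.65%, 2.40% and 2.97% of it in POMC libraries. The 4 genes of the Creb3 family, 2 of which were under the filter, had 8.43 ± 0.399 in fed, 13.5 ± 1.65 in fasted and 9.89 ± 1.25 in leptin AgRP libraries.

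Prkar1a was the only tested member whose RefSeq promoter window, from 250 bases before to 50 bases after a transcript start, held the full palindromic cyclic AMP response element TGACGTCA, and its sequence is shown because CREB is known to bind this element and Prkar1a is among the most abundant members. The stretch of 60 bases lies at chr11:109650874-109650933 on the plus strand of GRCm38.p6, and capitals mark the element, 49 to 42 bases before a RefSeq start.
Prkar1a promoter: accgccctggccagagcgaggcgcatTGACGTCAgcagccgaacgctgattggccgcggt
Of 27025 genes with a promoter sequence, 2.03% held this element, so that 1 of the 36 tested members with a sequence was close to that share. The shorter core TGACG or CGTCA, which the full element contains, was in the promoters of 16 of the 36 members and of 23% of all genes. A gene counted when any of its windows matched, and the 36 members had 74 windows. Windows per gene were not compared with those of all genes, so the shares may not be like for like.

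Fasting was accompanied by higher Pde1c, Adcy2, Creb3l2 and Creb3l1 and by lower Pde2a RNA in AgRP neurons. The question of this comparison is what food deprivation changes in the RNA that these neurons translate. Of the 45 members 4 rose and 1 fell, beside 3.89% of all 13401 genes called, of which 2.82% rose and 1.07% fell. The median log2 fold change was -0.03 over the members and 0.02 over all genes, and 22 of the 45 values were above 0.

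Pde1c (chr6:56069804-56569103, minus strand, GRCm38) encodes a phosphodiesterase that calcium and calmodulin activate and that destroys both cyclic nucleotides. It had 34.8, 37.05 and 29.6 CPM in the fed libraries and 61.2, 49.55, 58.5 and 53.1 CPM in the fasted libraries, and every fasted library was above every fed one. The log2 fold change was 0.73 (SE 0.126, FDR 0.00757, edgeR's quasi-likelihood test with Benjamini-Hochberg adjustment). Adcy2 (chr13:68620043-68999541, minus strand), a cyclase that the beta-gamma part of G proteins stimulates, had 108.6, 117.7 and 106.9 CPM in the fed and 158.5, 150.9, 178.7 and 156 CPM in the fasted libraries, again without overlap. Its log2 fold change was 0.55 (SE 0.0811, FDR 0.00355). The opposite direction was seen for Pde2a (chr7:101421691-101512827, plus strand), which had 142.7, 172.2 and 173.8 CPM in the fed but 104, 113.9, 110.5 and 112.5 CPM in the fasted libraries. It fell by 0.55 on the log2 scale (SE 0.0994, FDR 0.00915), so that within the group of enzymes that act on both nucleotides 1 gene rose and 1 fell. Counting used no strand, and exons of Adcy2 share 189 bases with the antisense gene Gm35161 and those of Pde2a 1364 bases with Gm45837 on the same strand, so that reads of these stretches cannot be assigned to 1 gene.

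Creb3l2 (chr6:37327255-37442146, minus strand) rose from 23.3, 22.85 and 24.5 CPM in the fed libraries to 38.4, 31.0, 43.1 and 41.0 CPM in the fasted libraries, with no overlap and a difference of 0.71 on the log2 scale (SE 0.145, FDR 0.0165). Creb3l1 (chr2:91982328-92024502, minus strand), its close relative, was far lower, at 2.85, 2.37 and 3.02 CPM in the fed and 4.23, 3.57, 3.93 and 3.82 CPM in the fasted libraries, a difference of 0.51 on the log2 scale (SE 0.13, FDR 0.0451). Both tested genes of the Creb3 family thus rose, whereas none of the 5 genes of CREB and its coactivators was called. Leaving out 1 library at a time kept Pde1c and Pde2a among the calls in all 7 cases. Adcy2 dropped out without fasted library 3, at a log2 fold change of 0.48, Creb3l2 dropped out without fasted library 3 or any fed library, at an FDR of up to 0.0760, and Creb3l1 dropped out in all 7 cases. In the 3 pairs of libraries with the same number, the fasted minus fed difference was 0.66 to 0.84 for Pde1c, 0.54 to 0.60 for Adcy2, 0.72 to 0.92 for Creb3l2, 0.34 to 0.73 for Creb3l1 and -0.64 to -0.46 for Pde2a on the log2 scale.

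With the library number as a block 2 further phosphodiesterases rose, Pde3a (log2 fold change 0.61, FDR 0.00256) and Pde5a (0.54, FDR 0.0264), beside 4.4% of all genes that rose and 2.54% that fell in that model. Without the block they had FDR 0.0919 and 0.402. Pde5a, which is specific for cyclic GMP, had 8.28, 5.87 and 6.37 CPM in the fed and 15.5, 8.22, 7.35 and 7.36 CPM in the fasted libraries, which overlapped. When the libraries numbered 4 were left out, Creb3l2, Pde1c and Adcy2 still rose (log2 fold changes of 0.69, 0.64 and 0.51), Pde2a fell by 0.54, Creb3l1 had FDR 0.0679, and Crebrf, a regulator of Creb3 proteins, was called with a log2 fold change of -0.55 (FDR 0.00721), beside 3.01% and 2.27% of all genes. Under scaling by library size only Creb3l2 and Pde2a were called, and the share of genes with higher values among all called genes was 62.2% there against 72.6% with TMM scaling.

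**Figure D2:**
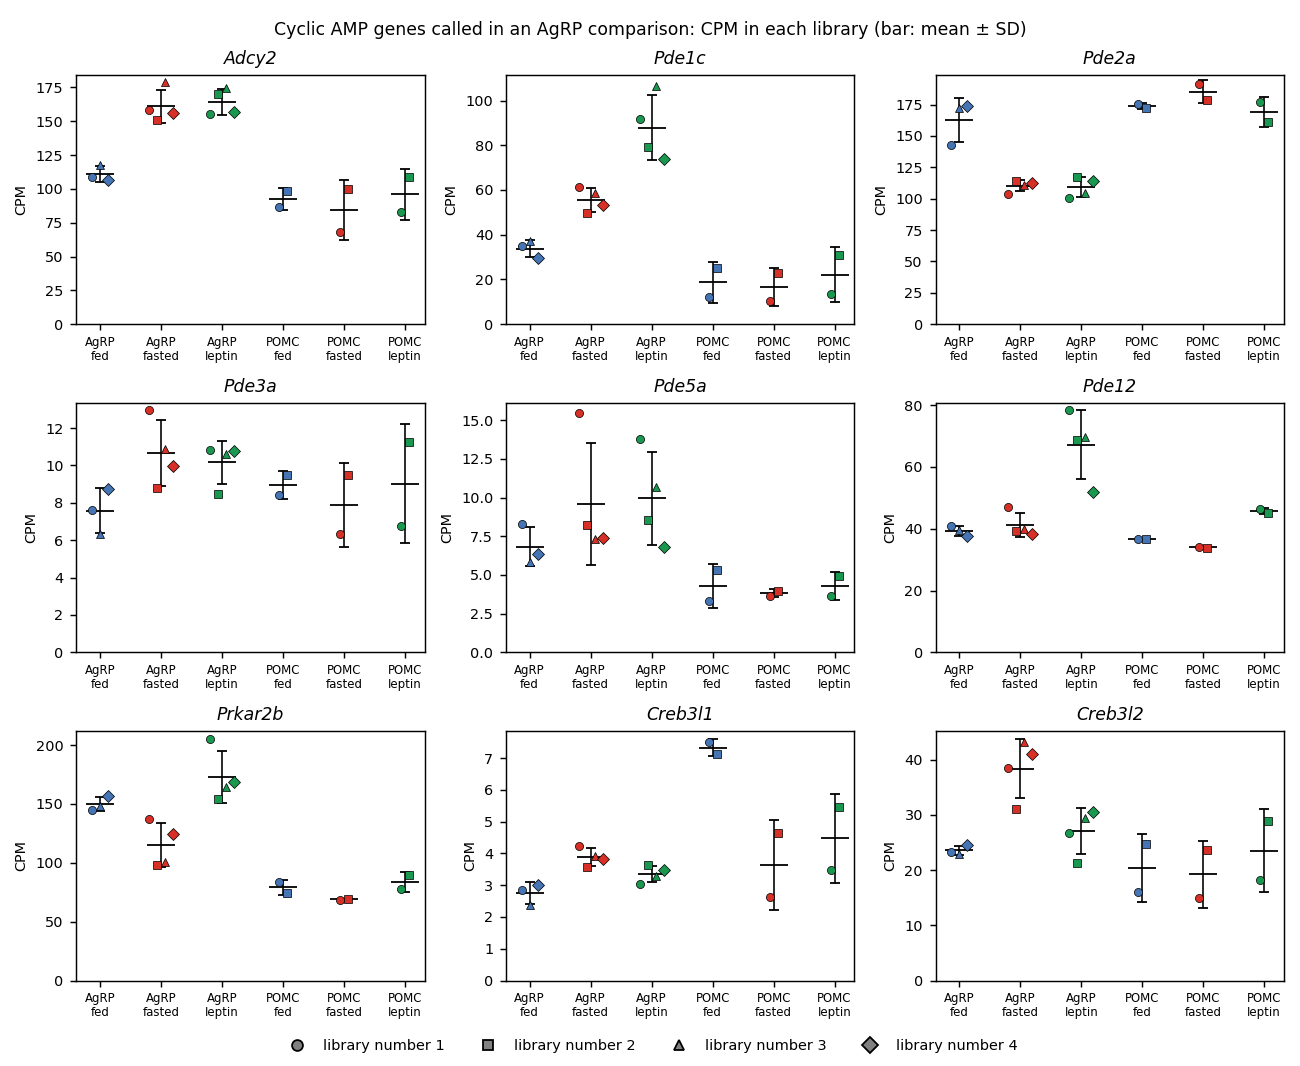
CPM of the 9 members called in any comparison of AgRP states, with or without the block, in each AgRP and POMC library, with symbols for the library number and bars for the mean ± SD of each group. Pde1c steps up from fed to fasted to leptin AgRP libraries (means of 33.8, 55.6 and 87.9 CPM), Pde2a is lower in fasted and leptin than in fed AgRP libraries, and Pde12 is higher in the leptin AgRP libraries.

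Leptin given to fasted mice was followed by still higher Pde1c and by higher Prkar2b and Pde12 RNA in AgRP neurons. This comparison asks what 3 h of leptin changes against the fasted background. Of the 45 members 3 rose and 0 fell by edgeR or DESeq2, with 4 lower at an unadjusted p under 0.05, beside 1.83% of all genes called, 1.19% higher and 0.634% lower. In either direction 8 members and 1224 of all 13401 genes had an unadjusted p under 0.05. Medians were -0.02 over the members and -0.01 over all genes.

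Pde1c had 91.55, 79.3, 106.7 and 73.9 CPM in the leptin libraries, all above the highest fasted library, and the rise was 0.66 on the log2 scale (SE 0.115, FDR 0.0116). Prkar2b (chr12:31958476-32061296, minus strand) encodes the regulatory subunit typical of brain and fat cells. It had 137.5, 98.2, 100.7 and 124.2 CPM in the fasted and 205.2, 154.2, 164.4 and 168.5 CPM in the leptin libraries, without overlap, and a log2 fold change of 0.59 (SE 0.122, FDR 0.0306). In the fed libraries it was at 144.6, 148.6 and 156.4 CPM, between these groups, and its log2 fold change from fed to fasted of -0.37 had FDR 0.139. Pde12 (chr14:26659958-26669883, minus strand), the mitochondrial RNA enzyme, had 46.9, 39.4, 39.8 and 38.4 CPM in the fasted and 78.55, 68.8, 69.8 and 51.8 CPM in the leptin libraries. Its log2 fold change was 0.71 (SE 0.105, FDR 0.00522), and its fed libraries, at 40.9, 39.5 and 37.6 CPM, lay among the fasted ones.

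Pde1c and Pde12 remained called when any 1 of the 8 fasted and leptin libraries was left out. Prkar2b remained called in 3 of the 8 cases and had an FDR of up to 0.103 in the others, which were those without fasted library 2 or 3 or leptin library 1, 3 or 4. With scaling by library size none of the 3 was called (FDR 0.0929 for Pde1c, 0.103 for Prkar2b and 0.0783 for Pde12), and the share of higher values among all called genes went from 65.3% to 73.3%. With the library number as a block Creb3l2 fell by 0.51 on the log2 scale (FDR 0.000163, against 0.0918 without the block), beside 1.81% of all genes that rose and 1.1% that fell in that model. Its leptin libraries had 26.7, 21.3, 29.5 and 30.6 CPM, all below the lowest fasted library and around the fed level. Without the libraries numbered 4 the same 3 genes rose, with FDR 0.0492 for Prkar2b, and Pde8a and Pde9a were called with log2 fold changes of -0.52 (FDR 0.0499) and -0.54 (FDR 0.0168), beside 1.75% and 0.723% of all genes.

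Against the fed state, leptin-treated fasted mice had higher Pde1c, Adcy2 and Pde12 and lower Pde2a RNA in AgRP neurons. These 3 higher and 1 lower genes stood beside 5.48% of all genes called, 3.73% higher and 1.75% lower. The log2 fold changes were 1.38 for Pde1c (SE 0.129, FDR 0.000399), 0.57 for Adcy2 (SE 0.0812, FDR 0.00231), 0.78 for Pde12 (SE 0.115, FDR 0.00273) and -0.57 for Pde2a (SE 0.0993, FDR 0.00666). Adcy2 had 155.6, 169.8, 174.6 and 157.1 CPM and Pde2a 100.3, 116.9, 104.8 and 114.2 CPM in the leptin libraries, within or close to the ranges of the fasted libraries. All 4 calls remained when any 1 of the 7 libraries was left out. With scaling by library size Pde12 had FDR 0.0585 and the other 3 remained called. The block added Pde5a (0.63, FDR 0.00995) and Pde3a (0.54, FDR 0.00410) to the higher genes, beside 5.34% of all genes higher and 3.23% lower. Without the libraries numbered 4 the same 4 genes were called and Pde3b rose as well, beside 3.87% and 2.72% of all genes. The 3 comparisons of AgRP states share libraries in pairs, so that their values are not independent of each other.

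**Figure D3:**
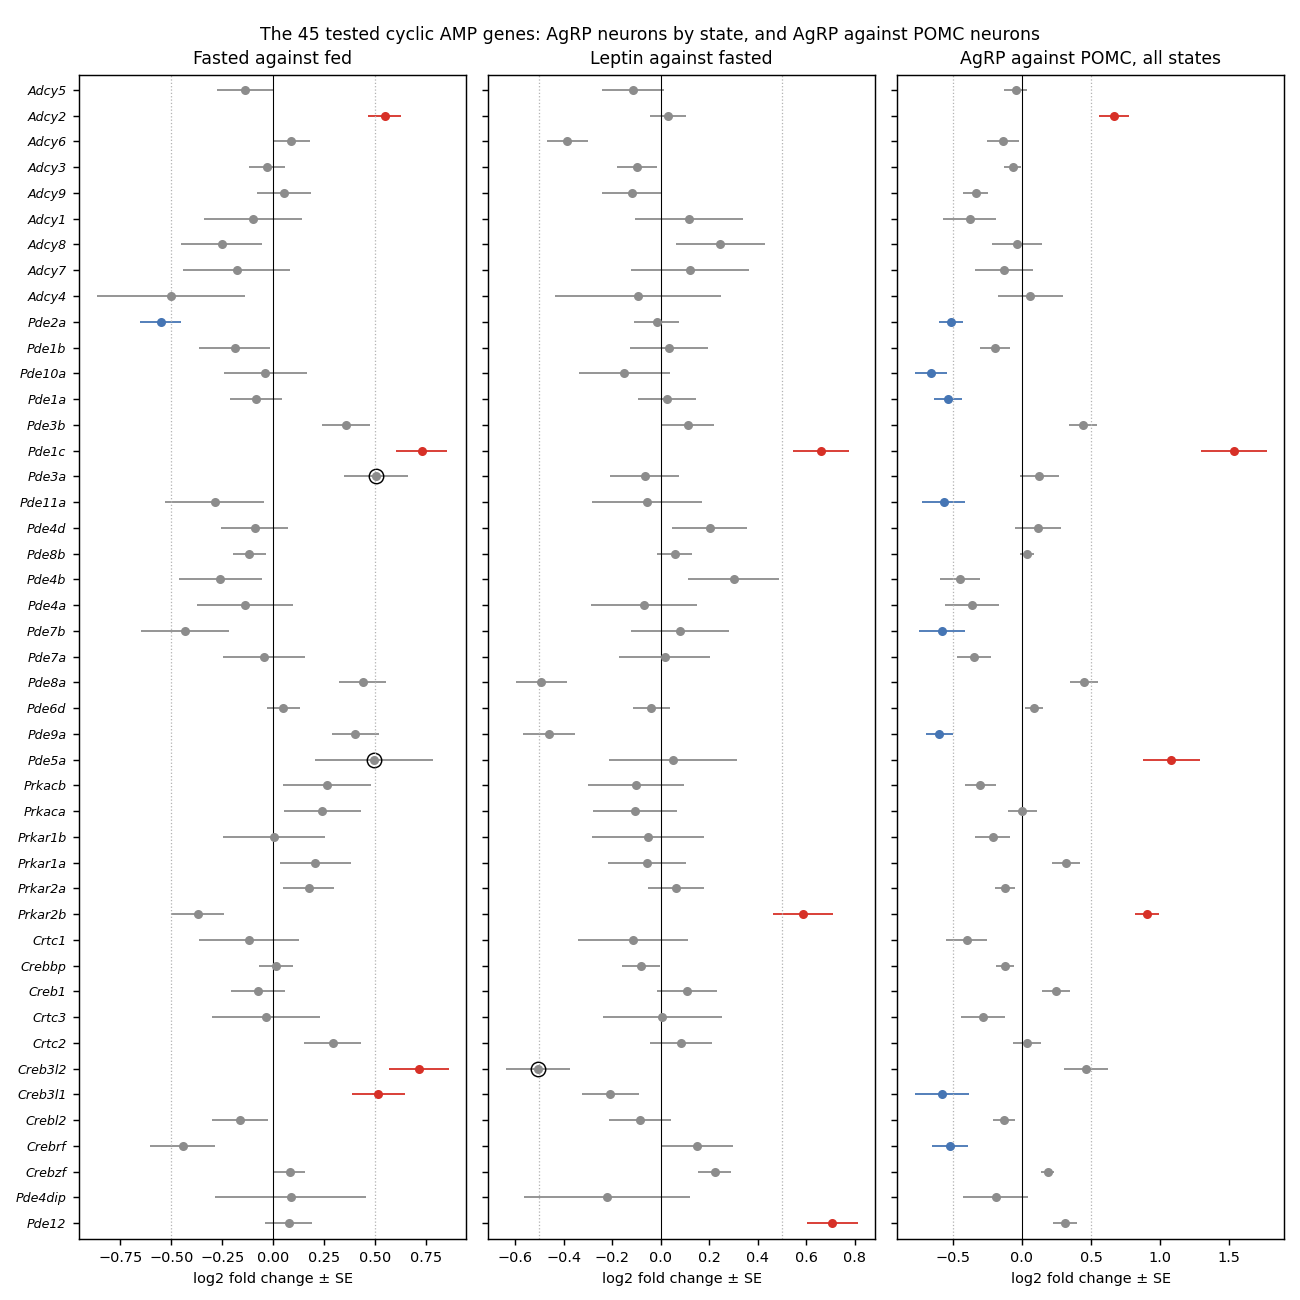
Log2 fold change ± SE of the 45 tested genes, ordered by role, for fasted against fed and leptin against fasted AgRP libraries and for AgRP against POMC libraries of all states. Filled red and blue points were called higher and lower, open rings mark genes called only with the library number as a block, and dotted lines mark the minimum log2 fold change of 0.5.

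The core of the pathway had small estimates. Among the PKA subunits other than Prkar2b, log2 fold changes from fed to fasted were 0.24 for Prkaca (FDR 0.554), 0.26 for Prkacb (FDR 0.580), 0.20 for Prkar1a (FDR 0.593), 0.00 for Prkar1b (FDR 0.998) and 0.17 for Prkar2a (FDR 0.519), and from fasted to leptin all 5 were between -0.10 and 0.06. Their libraries spread widely, with Prkacb at 1081 to 1588 CPM in fed and 1289 to 1979 CPM in fasted libraries. With the block the fasting estimates of Prkaca and Prkacb were 0.22 (FDR 0.0149) and 0.24 (FDR 0.0153), under the minimum of 0.5. Creb1, the CREB gene itself, had 82.5, 71.3 and 70.8 CPM in fed and 78.5, 66.6, 64.4 and 72.7 CPM in fasted libraries (log2 fold change -0.08, FDR 0.842). Crtc1 had 155.5, 150.5 and 221 CPM in fed and 138.4, 136.2, 140.5 and 225.2 CPM in fasted libraries (log2 fold change -0.12, FDR 0.866), and in each state its library numbered 4 was the highest. Adcy5 had a log2 fold change of -0.14 (FDR 0.668). Pde3b had 25.01, 25.4 and 24.0 CPM in fed, 36.2, 28.7, 32.25 and 29.1 CPM in fasted and 40.1, 33.4, 36.6 and 26.7 CPM in leptin libraries. All its fasted and leptin libraries were above all fed ones, yet the log2 fold changes were 0.36 from fed to fasted (FDR 0.116) and 0.47 from fed to leptin (FDR 0.0342), under the minimum of 0.5. Without the libraries numbered 4 the last value was 0.52 (FDR 0.0212). Adcy6 was likewise under the minimum, at -0.38 from fasted to leptin (FDR 0.0411).

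In POMC neurons edgeR called 0 members in either comparison of states, beside 0% of all 13412 genes, with 2 libraries per state. At an unadjusted p under 0.05 there were 282 genes and 1 member after fasting and 151 genes and 1 member after leptin. DESeq2 called 3 and 10 genes and the block 3 and 8 genes, (0.0224% and 0.0596%), with 0 members each time. Median log2 fold changes of the members were -0.02 and 0.03, and 0.00 in both comparisons over all genes. Pde1c had 12.3 and 25.2 CPM in fed, 10.6 and 22.75 CPM in fasted and 13.5 and 30.7 CPM in leptin POMC libraries, in each state higher in the library numbered 2. Pde2a had 175.7 and 172.3, then 191.5 and 178.5, then 177.4 and 160.8 CPM, near or above the fed AgRP libraries. Creb3l1 had 7.51 and 7.13 CPM in fed, 2.64 and 4.64 CPM in fasted and 3.49 and 5.46 CPM in leptin POMC libraries.

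Whether fasting acted differently in the neuron types was tested as a difference of the effects. Without a block 0 members were called by edgeR for fasting or for leptin, beside 22 and 11 of all genes (0.164% and 0.0819%). At an unadjusted p under 0.05 there were 6 and 1 members, beside 1204 and 389 of all 13435 genes. DESeq2 called 2 members for fasting, Creb3l1 and Pde2a, beside 166 of all genes, and 0 for leptin, beside 39. With the library number as a block 5 members were higher and 2 lower for fasting, beside 4.33% and 1.89% of all genes, and 0 were higher and 1 lower for leptin, beside 0.335% and 0.424%. Their values stand in the closing section. The effects in AgRP and POMC neurons were therefore shown to differ only where the shared number entered the model, or for Creb3l1 and Pde2a by DESeq2.

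AgRP neurons had more Pde1c, Pde5a, Prkar2b and Adcy2 RNA and less of 8 other members than POMC neurons, over all states. The 4 higher and 8 lower genes of 45 stood beside 13.7% of all 13435 genes called, 6.48% higher and 7.2% lower. These 17 libraries carry 4 AgRP and 2 POMC numbers, and libraries of 1 number are correlated, so that the SEs and FDRs of this comparison are too small. With the number as a random effect (limma voom, consensus correlation 0.562), a fit added after seeing the data, 4 members were higher and 3 lower, beside 3.98% and 4.06% of all genes. The median log2 difference was -0.13 over the members and -0.02 over all genes. Of the 9 tested adenylyl cyclases only Adcy2 was called, and of the 6 tested PKA subunits only Prkar2b.

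Pde1c had 29.6 to 106.7 CPM in the 11 AgRP libraries (median 58.5) and 10.6 to 30.7 CPM in the 6 POMC libraries (median 18.2), with a log2 difference of 1.53 (SE 0.238, FDR 0.000165). The ranges met only at the lowest AgRP and the highest POMC library. Prkar2b had 98.2 to 205.2 CPM (median 148.6) against 68.8 to 89.5 CPM (median 76.1), with no overlap and a log2 difference of 0.90 (SE 0.0874, FDR 1.22e-06). Pde5a had 5.87 to 15.5 CPM (median 8.22) against 3.30 to 5.29 CPM (median 3.82), also without overlap, and a log2 difference of 1.08 (SE 0.206, FDR 0.000923). Adcy2 had 106.9 to 178.7 CPM (median 156) against 68.4 to 109.1 CPM (median 92.6), with a log2 difference of 0.67 (SE 0.109, FDR 0.000255), and here the ranges overlapped slightly.

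The 8 genes that were lower in AgRP neurons were 6 phosphodiesterases with Creb3l1 and Crebrf. Pde10a, an enzyme of both nucleotides best known from the striatum, had 84.7 to 147 CPM (median 105) in AgRP and 143.4 to 216.9 CPM (median 175) in POMC libraries (log2 difference -0.66, FDR 0.000426). Pde1a, another calmodulin-dependent enzyme, had 32.0 to 45.1 CPM against 46.9 to 74.8 CPM, without overlap (log2 difference -0.53, FDR 0.00105). Pde1a and Pde1c thus differed in opposite directions. The others were Pde9a, an enzyme of cyclic GMP (-0.60, FDR 0.000234), Pde7b, specific for cyclic AMP (-0.58, FDR 0.0130), Pde11a, of dual specificity (-0.57, FDR 0.00967), Pde2a (-0.51, FDR 0.000328), Crebrf (-0.52, FDR 0.00636) and Creb3l1 (-0.58, FDR 0.0289), whose ranges overlapped between the neuron types.

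With the library number as a random effect in limma voom, Pde1c (FDR 0.00261), Prkar2b (FDR 0.000524), Adcy2 (FDR 0.0240), Pde5a (FDR 0.0409), Pde10a (FDR 0.00777), Pde9a (FDR 0.0201) and Pde1a (FDR 0.0420) remained called, whereas Pde2a (FDR 0.0547), Pde7b (FDR 0.0832), Pde11a (FDR 0.113), Crebrf (FDR 0.135) and Creb3l1 (FDR 0.279) did not. In the fit without that term Pde1c, Pde5a, Prkar2b, Adcy2, Pde10a and Pde9a remained called when any 1 of the 17 libraries was left out, whereas Pde11a was lost in 1 case, Pde1a and Pde7b in 2 each, Creb3l1 and Pde2a in 5 each and Crebrf in 6. The direction of the list depended on the scaling: by library size 7 members were higher and 2 lower, and the share of higher values among all called genes went from 47.4% to 63.1%. Without the AgRP libraries numbered 4 and the POMC libraries numbered 2, 7 members were higher and 3 lower, with log2 differences of 2.22 for Pde1c, 1.38 for Pde5a, 0.88 for Prkar2b and 0.87 for Adcy2, beside 7.58% and 8.51% of all genes. Creb3l2 (0.76), Pde8a (0.55) and Pde4d (0.54) joined the higher genes there, and Pde9a, Pde10a and Pde2a stayed among the lower ones.

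State by state the calls were fewer, with 2 POMC libraries each. Their change from fed to fasted and from fasted to leptin is the difference of effects described above. Without a block edgeR called 0 members there, and with the block 5 higher and 2 lower for fasting and 1 lower for leptin. The change from fed to leptin was not tested. In fed mice only Prkar2b (log2 difference 0.92) was higher and only Creb3l1 (-1.42) lower, while Pde1c at 0.85 (FDR 0.274), Adcy2 at 0.26 (FDR 0.379) and Pde2a at -0.09 (FDR 0.797) were not called, beside 1.06% of all genes higher and 1.11% lower. In fasted mice Pde1c (1.73), Creb3l2 (0.98), Adcy2 (0.92) and Prkar2b (0.73) were higher and Crebrf (-0.82), Pde10a (-0.77) and Pde2a (-0.76) lower, beside 4.59% and 2.88% of all genes. In leptin mice Pde1c (1.99), Prkar2b (1.05) and Adcy2 (0.77) were higher and Crebrf (-0.73) and Pde2a (-0.63) lower, beside 2.78% and 1.97% of all genes. Prkar2b was thus the member called higher in each of the 3 states.

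ATAC-seq gives the accessibility of chromatin as reads per peak. In the comparison of states 524 tested peaks overlapped 50 of the 55 genes with 1 kb on both sides, and in sorted nuclei 337 peaks overlapped 49 genes. The sequences below are the central 300 bases of 4 peaks at genes called in RNA, shown because they gained accessibility in fasted, leptin or AgRP-positive nuclei. All are on the plus strand of GRCm38, with capitals for matches on either strand to the core of the cyclic AMP response element (TGACG or CGTCA), the STAT motif TTCNNNGAA or the AP-1 motif TGANTCA. The Adcy2 stretch holds no match.
Pde1c, AgRP-positive gain at an internal start site, chr6:56368850-56369149: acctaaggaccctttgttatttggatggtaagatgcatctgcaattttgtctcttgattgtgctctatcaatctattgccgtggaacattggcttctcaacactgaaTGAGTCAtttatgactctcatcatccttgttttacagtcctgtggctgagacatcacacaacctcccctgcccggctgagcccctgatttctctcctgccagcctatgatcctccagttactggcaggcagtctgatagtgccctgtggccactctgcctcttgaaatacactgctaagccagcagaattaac
Pde1c, leptin gain, chr6:56378877-56379176: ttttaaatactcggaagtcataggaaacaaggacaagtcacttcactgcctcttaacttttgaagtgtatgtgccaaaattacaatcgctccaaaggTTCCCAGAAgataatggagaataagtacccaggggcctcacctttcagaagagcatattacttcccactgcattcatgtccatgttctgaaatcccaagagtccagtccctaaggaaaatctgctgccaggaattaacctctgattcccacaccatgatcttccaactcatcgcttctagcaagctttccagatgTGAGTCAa
Adcy2, fasting gain, chr13:68641895-68642194: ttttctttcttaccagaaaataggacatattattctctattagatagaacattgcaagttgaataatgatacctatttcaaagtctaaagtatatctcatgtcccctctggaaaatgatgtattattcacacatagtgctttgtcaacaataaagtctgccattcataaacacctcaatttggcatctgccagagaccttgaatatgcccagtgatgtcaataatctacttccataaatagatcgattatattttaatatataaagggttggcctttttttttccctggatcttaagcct
Creb3l2, AgRP-positive gain, chr6:37370554-37370853: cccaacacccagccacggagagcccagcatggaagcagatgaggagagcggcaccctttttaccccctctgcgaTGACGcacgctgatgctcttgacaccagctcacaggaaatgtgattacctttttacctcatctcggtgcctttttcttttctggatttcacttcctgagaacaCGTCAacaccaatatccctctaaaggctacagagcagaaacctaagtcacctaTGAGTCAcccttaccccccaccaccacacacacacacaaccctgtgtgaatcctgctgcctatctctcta

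Fasting opened 103 and closed 47 of the 524 peaks at members, that is 19.7% and 8.97%, beside 18.1% and 8.88% of all 102237 peaks and 16.1% and 7.52% of those at protein-coding genes. Leaving out 1 library gave 59 to 87 opened and 14 to 41 closed peaks, the fewest opened without fed library 2 and the fewest closed without fasted library 2. The median log2 fold change was 0.11 over these peaks and -0.04 over all peaks. Opened peaks were found at 32 of the 50 genes with a tested peak and closed peaks at 21, with 16 genes holding both. The number of tested peaks varied between genes, from 1 at Pde12 to 91 at Pde4d. The share of all genes with such peaks was not computed, so these gene counts are a description only. At Adcy2, whose RNA rose with fasting, 12 of 30 peaks opened and 4 closed, and at Pde1c 6 of 24 opened and 3 closed. Pde2a, whose RNA fell, had 7 of 16 peaks opened and 0 closed by edgeR. Opened peaks outnumbered closed ones over all peaks as well, and whether the peaks counted at a gene act on it was not tested.

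The largest gain at Adcy2 was the intronic peak at chr13:68641648-68642441, which is 357.5 kb from the start site and whose centre is printed above. It had 0.63 and 0.80 CPM in fed, 7.37 and 10.9 CPM in fasted and 5.21 and 3.96 CPM in leptin libraries, with a log2 fold change of 3.61 from fed to fasted (SE 0.486, FDR 5.18e-05). Both fasted libraries were above both fed ones, with the leptin libraries in between. At Pde1c the largest was chr6:56140677-56140935 in an intron (3.71, FDR 0.00149), at Pde3a chr6:141258563-141259015 (3.87, FDR 0.000116) and at Pde2a chr7:101466455-101466789 (3.07, FDR 0.000671). Creb3l2 had 2 opened and 3 closed peaks of 11, Prkar2b 3 opened of 15, and the single peak of Pde12 was not called.

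Of 76 peaks within 1 kb of a member's start site, 1 opened and 6 closed after fasting, that is 1.32% and 7.89%, beside 2.18% and 3.78% of the 14887 peaks at start sites of all protein-coding genes. The closed ones were at Pde4b (-1.58), Pde6c (-1.29), Pde4d (-0.67), Creb3l2 (-0.51), Crebzf (-0.51) and Pde3b (-0.51), and the opened one was another peak of Pde6c (1.60). The start-site peak of Creb3l2 thus closed while its RNA rose, but the values of -0.51 lie close to the minimum of 0.5. With scaling by library size the closed peaks at members went from 47 to 38 and the opened ones from 103 to 109. The median of all peaks moved from -0.0395 to 0.0153 there.

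Leptin opened 14 and closed 3 of the 524 peaks, 2.67% and 0.573%, beside 2.41% and 0.669% of all peaks and 1.86% and 0.524% of those at protein-coding genes. Pde1c held the largest gain, at chr6:56378685-56379368, an intronic peak 190.1 kb inside the outermost start site. It had 1.64 and 0.88 CPM in fed, 0.65 and 0.69 CPM in fasted and 4.44 and 3.06 CPM in leptin libraries (log2 fold change 2.44, SE 0.464, FDR 0.00445), so that leptin libraries were the highest of the 3 states. Its central sequence, printed above, has a STAT motif and an AP-1 motif. Adcy2 had 2 opened peaks, the larger at chr13:68731503-68731717 (1.90). The closed peaks were at Pde3a, Pde6c and Pde10a. The intronic Pde3a peak at chr6:141351794-141352617 had 14.1 and 11.3 CPM in fed, 36.3 and 21.2 CPM in fasted and 11.3 and 7.98 CPM in leptin libraries (log2 fold change -1.59, FDR 0.00226). It was high in fasted libraries only. The Pde10a peak, chr17:8524261-8525274, was the only called one at a start site (-0.66, FDR 0.0284), where 0.255% of all start-site peaks opened and 0.0672% closed. The counts of opened and closed peaks depended on single libraries: leaving out 1 library, whichever it was, gave 3 to 9 opened and 0 to 6 closed peaks, and the library number as a block gave 28 and 10.

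**Figure D4:**
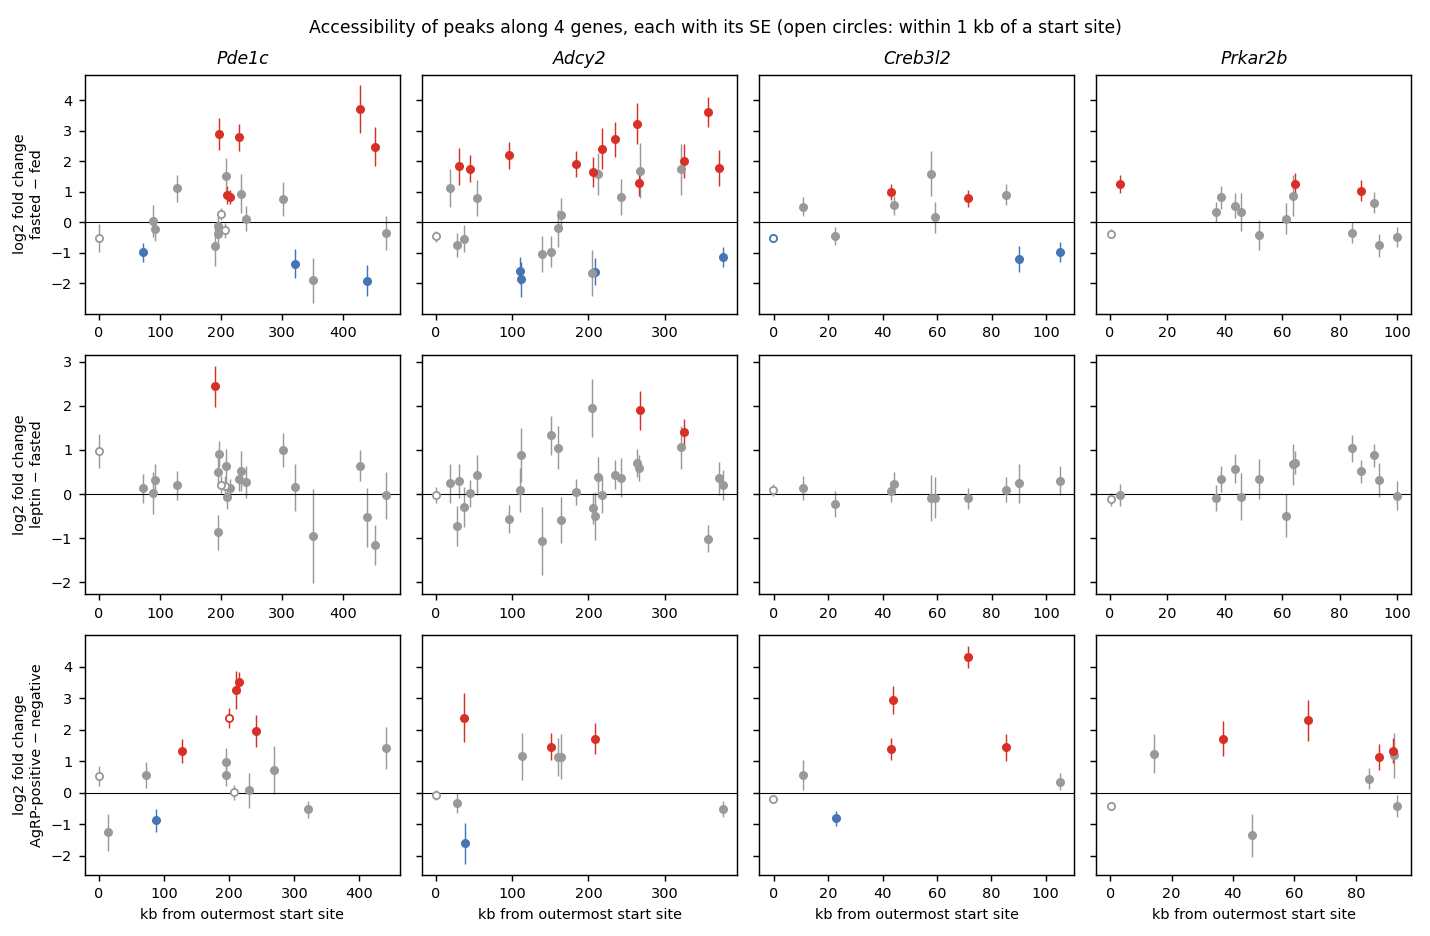
Log2 fold change ± SE of each tested peak at Pde1c, Adcy2, Creb3l2 and Prkar2b against the distance in kb from the outermost start site, for fasted against fed, leptin against fasted and AgRP-positive against AgRP-negative nuclei, with 2 libraries per group. Red and blue points were called higher and lower and open circles lie within 1 kb of a start site; called gains lie mostly inside the genes, and at Pde1c those of AgRP-positive nuclei include an internal start site.

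Against AgRP-negative nuclei, AgRP-positive nuclei had 90 more accessible and 50 less accessible peaks at members, 26.7% and 14.8% of 337, beside 23.9% and 15.6% of all 66560 peaks. At protein-coding genes the background was 20% and 14.4%. Per the study, both populations were sorted from the same pooled samples, and this test did not pair them. With the library number as a block 98 peaks at members were more and 58 less accessible. Leaving out 1 library gave 58 to 87 and 30 to 45 peaks, with the fewest of each when an AgRP-negative library was left out. Medians were 0.12 over the members' peaks and -0.00 over all peaks. With scaling by library size 103 and 29 peaks were called, the share of more accessible among all called peaks went from 60.5% to 71.4%, and the median of all peaks moved from -0.0003 to 0.163.

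Pde1c and Creb3l2 held the largest gains among the genes called in RNA. The intronic Creb3l2 peak at chr6:37370356-37371050 had 1.23 and 0.95 CPM in negative and 25.96 and 17.75 CPM in positive nuclei (log2 difference 4.31, SE 0.345, FDR 6.66e-33). The Pde1c peak at chr6:56353270-56353900, 8726 bases into the transcript from the nearest start, had 1.72 and 1.42 CPM in negative and 19.8 and 16.3 CPM in positive nuclei (3.51, SE 0.334, FDR 1.25e-23). In each case both positive libraries were far above both negative ones. A further Pde1c peak, chr6:56368779-56369220, lies 584 bases inside one of its 9 start sites and in an intron of longer transcripts, and it had 2.46 and 3.08 CPM against 15.8 and 13.25 CPM (2.38, SE 0.309, FDR 4.79e-13). Of 16 Pde1c peaks 5 were more and 1 less accessible.

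Prkar2b, the regulatory subunit that was higher in AgRP than in POMC RNA, had 4 more and 0 less accessible of 10 peaks by edgeR, the largest at chr12:31996883-31997101 (2.30, FDR 0.00201). Adcy2 had 3 more and 1 less accessible of 10 peaks, and Pde5a 2 more of 4. Among genes that were lower in AgRP RNA, the largest called difference was -2.44 at Pde7b but 0.89 at Pde10a, 1.57 at Pde9a, 2.65 at Pde1a and 2.98 at Pde11a, so that of these genes only Pde7b had its largest called difference towards lower accessibility. The nuclei compared here were AgRP-negative ones of the sort, not those of POMC neurons. At the 72 start-site peaks 7 were more and 19 less accessible, that is 9.72% and 26.4%, beside 2.96% and 13.4% of the 14101 peaks at start sites of all protein-coding genes. The gains were at Pde1c (2.38), Pde6c (2.91), Pde6h (2.21), Pde4d (1.56), Pde8a (0.62), Pde5a (0.55) and Pde10a (0.54). Losses included another start site of Pde4d (-2.98), Adcy8 (-1.48), Pde4b (-1.32), Pde1a (-0.99), Crtc1 (-0.57), Creb1 (-0.53) and the coactivator Crebbp (-0.53). The losses at Crtc1, Creb1 and Crebbp lie near the minimum of 0.5, as do the gains at Pde5a and Pde10a. With scaling by library size the peaks called at members went from 90 more and 50 less accessible to 103 and 29.

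Beside the motifs of single peaks, the shares over all peaks put them in proportion. In the central 300 bases of the peaks of at least that length, the full cyclic AMP response element was in 0.84% and its core in 16.3% of 78717 peaks of the 3 states, with the STAT motif in 12.7% and the AP-1 motif in 29.5%. In sorted nuclei the shares were 1.17%, 18.5%, 10.8% and 16% of 47880 peaks. In promoters of all genes the STAT motif was in 9.55% and the AP-1 motif in 8.97%, and of the 36 tested members with a promoter sequence 9 held the former and 3 the latter, Adcy3, Adcy7 and Pde1c. Here too a gene counted when any of its promoter windows matched, so these shares may not be like for like.

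Other genes of the pathway were taken from lists of CREB targets, G proteins, PKA inhibitors and anchors and further cyclic AMP effectors. The lists were chosen with earlier results of these data known, so that their counts are a description and not an independent test. Fasting raised 7 of 22 tested CREB target genes and lowered 0 by edgeR (13 and 1 with the block), with a median log2 fold change of 0.66, beside 2.82% and 1.07% of all genes (4.4% and 2.54% with the block). They were the secreted neuropeptide precursor Vgf (2.22, FDR 0.00155), the small GTPase Gem (1.84, FDR 0.00100), the immediate early genes Npas4 (1.78), Nr4a1 (1.60, FDR 0.0262), Fos (1.35, FDR 0.00315) and Junb (0.57), and the prohormone convertase Pcsk1 (0.74). Fos had 19.7, 11.9 and 20.3 CPM in fed, 36.2, 53.8, 44.2 and 40.0 CPM in fasted and 28.35, 31.0, 25.7 and 31.0 CPM in leptin libraries. All fasted libraries were above all others.

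From fasted to leptin 5 of the 22 targets fell, Npas4 (-2.15), Nr4a1 (-1.87), Fosb (-1.56), Nr4a3 (-1.25) and Gem (-0.81), and 0 rose by edgeR, with a median of -0.26, beside 0.634% and 1.19% of all genes. With the block 7 fell and 1, Rgs2, rose. Nr4a1, a nuclear receptor, had 7.48, 5.52 and 10.8 CPM in fed, 21.75, 28.1, 12.7 and 32.4 CPM in fasted and 4.13, 6.98, 6.49 and 8.29 CPM in leptin libraries. Its leptin libraries were below all fasted ones and near the fed ones, in contrast to Pde1c, which rose in both steps. Crem, the CREB relative that gives rise to a cyclic AMP inducible repressor, had 35.9, 36.6 and 30.7 CPM in fed and 46.5, 38.8, 50.6 and 51.7 CPM in fasted libraries (log2 fold change 0.46, FDR 0.0666), and from fed to leptin it rose (0.51, FDR 0.0352). Among the other lists Akap12, an anchor of PKA, rose from fasted to leptin (0.58, FDR 0.0234) as 1 of 13 inhibitors and anchors, and Hcn3, a channel that cyclic nucleotides modulate, fell from fed to leptin (-0.52, FDR 0.00145) as 1 of 7 effectors. None of the 7 G protein genes was called between AgRP states by edgeR without the block, while Gnas was higher and Gnai1 lower in AgRP than in POMC neurons. Gnas, which encodes the stimulatory G protein, was taken from the entry of that name and had a log2 fold change of 0.68 from fed to fasted (FDR 0.100, and 0.000149 with the block). That entry had a mean of 117.6 CPM in fed AgRP and 21.75 CPM in fed POMC libraries. The additional entry Gnas.2 had the most counts of all genes in some AgRP libraries, 0.379% in fed library 3 and 0.45% in fasted library 3. Its change was not examined here, so the values of Gnas stand for that entry alone.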

How the data were processed

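Per the labels and the study's methods, the authors mapped the TRAP reads to mm10 (GRCm38) by HISAT2, and featureCounts assigned them to genes of an annotation edited so that transcripts overlap less. For ATAC-seq they used Bowtie2 for mapping, SAMtools to discard duplicates, MACS2 for peaks and bedtools for the reads in each peak of the merged set. Libraries were made with a kit that marks no strand. The values used are these raw counts as deposited. Whole-arcuate RNA was not analysed here.

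The members and lists were chosen with earlier results of these data known. The tests were run in edgeR 4.0.16 under R 4.3.3, after the scripts had been tested on simulated data. Features under a mean of 1 CPM were dropped, TMM factors were computed, and quasi-likelihood models were fitted, with state as the factor for AgRP RNA, POMC RNA and ATAC-seq, neuron type and state for AgRP against POMC, and the 6 groups for the difference of effects. A feature was called at a Benjamini-Hochberg FDR under 0.05 over all features tested and an absolute log2 fold change over 0.5. SEs are those implied by the F statistic, CPM values are TMM-scaled, and levels per kb divide CPM by transcript length. Alternatives were DESeq2 1.42.0, library-size scaling, no filter, no fold minimum, a window of 10 kb around genes, single states, each library left out and, chosen after seeing the data, leaving out the libraries with high astrocyte markers and, for AgRP against POMC, limma voom (limma 3.58.1) with the library number as a random effect.

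Residuals of same-numbered libraries were correlated in AgRP RNA (r 0.536 to 0.814 over 10 pairs, against -0.642 to 0.642 over 30 other pairs) and in POMC RNA (0.733 to 0.770 over 6 pairs), so the number was taken to pair the RNA libraries, and blocked values stand beside results whose call they change. Which source the number marks is not given in the sources used here. Gene positions are from GENCODE on GRCm38, and promoter sequences from RefSeq on GRCm38.p6, with 42 of the 55 members matched. Named genes were the members called in any RNA comparison with or without the block, the highest member per kb in each role, Pde3b, Creb1, Crtc1, Crem and the PKA subunits, other pathway genes called in an AgRP comparison, called peaks at start sites and the largest called peak of each called member, and of these the text gives the main ones.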

Additional observations from a re-analysis of the deposited data

Results flagged for a closer look

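Some members had 1 library apart from the other 3 of its group, by the gap to the nearest value relative to the range (Dixon's 95% limit, 12 of 90 groups of 4 libraries, where chance gives about 1 in 20). In fasted AgRP libraries these were Adcy1 at 78.77 CPM in library 2 (others 50.1 to 52.7), Pde12 at 46.89 CPM (others 38.4 to 39.8) and Pde5a at 15.5 CPM (others 7.35 to 8.22) in library 1, and Crtc1 at 225.2 CPM (others 136.2 to 140.5), Crtc3 at 49.36 CPM (others 24.2 to 28.0) and Pde4dip at 631.9 CPM (others 287.4 to 312.2) in library 4. In leptin AgRP libraries they were Adcy5 at 267.7 CPM (others 339 to 340.2), Prkaca at 347.7 CPM (others 506.7 to 532.8) and Pde8a at 7.242 CPM (others 8.63 to 8.90) in library 1, Pde3a at 8.461 CPM in library 2 (others 10.6 to 10.9), and Crtc1 at 201.1 CPM (others 125.8 to 135.8) and Pde4dip at 507.2 CPM (others 252.8 to 279.4) in library 4. The libraries numbered 4 hold 5 of these 12 values and are those with the high astrocyte marker sum, and Pde4dip was also at 519.8 CPM in fed library 4 and at 422 to 592.1 CPM in the POMC libraries numbered 2 against 271.4 to 311.2 CPM in those numbered 1. The part of that signal in these values was not tested.

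The effect of fasting differed between AgRP and POMC neurons for 7 members when the library number entered as a block, as the log2 fold change in AgRP minus that in POMC neurons by edgeR. It was 1.56 for Creb3l1 (FDR 0.00227, and 0.0650 without the block), 0.95 for Pde1c (0.000264, and 0.671), 0.88 for Creb3l2 (0.000215, and 0.488), 0.80 for Pde3a (0.0214, and 0.570) and 0.70 for Adcy2 (0.000949, and 0.264). Crebrf at -0.86 (FDR 0.000297, and 0.209 without the block) and Pde2a at -0.67 (0.000356, and 0.0780) had the opposite sign. DESeq2 without the block called Creb3l1 at 1.52 (FDR 0.00163) and Pde2a at -0.67 (FDR 0.00587). For leptin the difference was -0.80 for Creb3l2 with the block (FDR 0.00145, and 0.9998 without it).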

How the results depend on the processing

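With 2 to 4 libraries per group, calls near the thresholds depended on single libraries. Leaving out 1 library at a time gave 1 to 3 members higher and 1 to 2 lower after fasting in AgRP neurons (1 higher without fasted library 3, 2 higher without any fed library), 2 to 3 higher and 0 to 2 lower from fasted to leptin, 3 to 4 higher and 1 lower from fed to leptin, 0 in POMC neurons and in the differences of effects, and 4 to 5 higher and 3 to 9 lower for AgRP against POMC. For peaks it gave 59 to 87 opened and 14 to 41 closed after fasting, 3 to 9 opened and 0 to 6 closed after leptin, and 58 to 87 more and 30 to 45 less accessible in AgRP-positive nuclei. In these cases a group of 2 kept 1 library, which is assumed to vary like the other groups.

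Scaling by library size called 1 member higher after fasting and 0 from fasted to leptin, 7 higher and 2 lower for AgRP against POMC, and 29 less accessible peaks in AgRP-positive nuclei. Without the libraries numbered 4, 2 members were lower after fasting and 2 from fasted to leptin. Without them and with the block, 7 were higher and 2 lower after fasting, 3 lower from fasted to leptin, and 6 higher and 3 lower from fed to leptin. The share of all genes called was not computed for that model, so these counts are not read as a result about the members. For AgRP against POMC, leaving out the libraries with high astrocyte markers gave 7 higher and 3 lower members, fed libraries alone 1 and 1, and fasted and leptin libraries alone 3 and 2 lower. No fold minimum gave 2 lower from fasted to leptin, 5 higher from fed to leptin, and 10 higher and 13 lower for AgRP against POMC. Without the minimum the share of all genes was not computed either. DESeq2 called 1 higher and 1 lower member for the difference of the fasting effects, beside 125 and 41 of all genes. Creb3l1 in fasted libraries alone (0.087, FDR 0.837) and Crebrf in fed libraries alone (0.0691, FDR 0.870) had the opposite sign to all states. Of all other values of single genes 531 kept their call, 84 lost it and 21 gained it, in the same direction. The causes were not tested.

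The library number as a block called 1 member lower from fasted to leptin, 5 higher from fed to leptin, 5 higher and 2 lower for the difference of the fasting effects, and 1 lower for that of leptin, and changed no other call of a member beyond those given in the report. In ATAC-seq, same-numbered libraries had correlations of 0.155, 0.165, -0.00228 and, in sorted nuclei, 0.0988, and the block gave 116 and 59 called peaks after fasting, 28 and 10 after leptin and 98 and 58 in sorted nuclei. For AgRP against POMC the numbers are nested in the mouse lines, and a random effect for the number in limma voom called 4 members higher and 3 lower.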
